A study of Homo sapiens with 4 samples.

Results

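The 10 genes of the cell's contractile and matrix-signalling programme followed here are CCN1, CCN2, ANKRD1, TAGLN, CNN1, ACTA2, TPM1, MYL9, TNFRSF12A and VCL. They were taken by symbol as genes known to respond to the transcription factors SRF and YAP, and all 10 were found among the 40188 genes with values. Their selection was made with their levels in these libraries known, so the values below describe the genes and test nothing. The data are polyA-selected, stranded RNA-seq of HEK293 cells, a human embryonic kidney line. There were 4 libraries, 1 for each stable line, in which doxycycline drove SRRM4, SRRM3, MSI1 or, as the control, an empty vector. Every line, the control included, received 1 µg/mL of the drug for 24 h. SRRM4 and SRRM3 are paralogous splicing regulators known for including neuronal microexons in transcripts, and MSI1 is an RNA-binding protein of neural progenitors. The labels do not say whether a line was 1 clone or a pool, and with 1 library per line a difference between lines and an effect of the induced protein cannot be told apart.

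SRF binds CArG boxes together with actin-sensing cofactors of the MRTF family, and it drives genes of actin filaments and smooth muscle. YAP and its relative TAZ (gene WWTR1) have no DNA-binding domain of their own and act through TEAD factors, which bind GGAATG-type sites. Both routes are known to respond to cell shape and adhesion. CCN2, CCN1 and ANKRD1 are textbook YAP targets, and TAGLN, CNN1, ACTA2 and VCL are textbook SRF targets.

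Levels are given as cRPKM, a read density corrected for gene length and library size, with the read count beside it. The libraries held 60288244 counts for SRRM4, 62892722 for SRRM3, 63003121 for MSI1 and 62083851 for the empty vector. Folds are ratios of counts scaled to these totals, with a 95% exact interval for counting error only, which says nothing about variation between cultures. A gene was counted as higher or lower where the log2 ratio of cRPKM, after 0.5 was added to each value, reached 1 in size. That rule was applied to the 12706 genes with a mean of at least 1 cRPKM over the 4 libraries, leaving out the induced genes of the comparison. The rule concerns size alone, without a test, and 9 of the 10 genes passed the filter. Each induced gene was highest in the library named for it, at 63.78 cRPKM for SRRM4, 38.53 cRPKM for SRRM3 and 62.43 cRPKM for MSI1, against 0.39, 0.49 and 8.38 cRPKM of those genes in the empty vector. Markers of HEK293 cells were present, 8 of 9 at 1 cRPKM or more in every library. Of 13 fibroblast and smooth muscle markers 1 was (COL1A1), and their summed level was 5.56 cRPKM in SRRM4, 5.92 in SRRM3, 6.06 in MSI1 and 5.37 in the empty vector. DCN and COL1A2 had 3 reads or fewer in every library. In bulk RNA, fewer cells expressing a gene and less RNA per cell cannot be told apart.

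Promoter sequence is shown first because the genes are grouped by the factors said to act there. The RefSeq promoter windows (GRCh38.p14), which run from 250 bases before the transcription start to 50 after it, held 6 of the 10 genes, with a pair of starts for ACTA2. CCN1, TAGLN, MYL9 and TNFRSF12A had no window and were not searched. The lines below give the 250 bases before the start for the 2 genes with most TEAD motifs and for CNN1, which had no match. They also give 30 bases around the only TEAD match of ACTA2 and of VCL. Capitals mark GGAATG, the TEAD motif, and, further into the ANKRD1 line, the match to TGANTCA. In that pattern N is any base, T in this match, so it is a loose form of the motif of the dimeric factor AP-1.
CCN2, chr6:131951373-131951622 (- strand): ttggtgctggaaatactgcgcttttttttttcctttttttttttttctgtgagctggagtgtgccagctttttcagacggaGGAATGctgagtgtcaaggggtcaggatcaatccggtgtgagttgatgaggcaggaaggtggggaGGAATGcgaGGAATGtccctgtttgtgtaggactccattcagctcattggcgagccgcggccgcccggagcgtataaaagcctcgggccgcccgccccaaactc
ANKRD1, chr10:90921088-90921337 (- strand): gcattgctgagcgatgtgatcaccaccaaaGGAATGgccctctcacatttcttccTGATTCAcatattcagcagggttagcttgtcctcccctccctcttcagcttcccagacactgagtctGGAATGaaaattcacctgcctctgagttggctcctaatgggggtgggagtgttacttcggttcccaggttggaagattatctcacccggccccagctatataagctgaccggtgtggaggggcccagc
CNN1, chr19:11538601-11538850 (+ strand): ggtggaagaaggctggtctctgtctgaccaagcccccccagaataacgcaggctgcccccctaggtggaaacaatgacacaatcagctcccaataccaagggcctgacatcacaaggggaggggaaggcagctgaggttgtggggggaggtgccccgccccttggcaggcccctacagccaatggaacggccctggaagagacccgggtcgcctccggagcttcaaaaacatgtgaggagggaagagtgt
ACTA2 downstream start, chr10:88952939-88952968 (- strand): gagcagaccagtGGAATGcagtggaagaga
VCL, chr10:73997933-73997962 (+ strand): gcccctcccttaGGAATGggggaggggcgg

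CCN2 held 3 copies of GGAATG, whose first bases lay 169, 104 and 95 bases before the start, the last pair separated by 3 bases. ANKRD1 held 2 copies, at 220 and 128 bases before its start, and the AP-1 match at 195 bases before. The ACTA2 downstream start and VCL had 1 copy each, at 183 and 171 bases before the start. CNN1, TPM1 and the ACTA2 upstream start had none, and the strict CArG consensus (a pair of C, then 6 bases each A or T, then a pair of G) was in none of the 7 windows. Near matches to it, which SRF can also bind, were not searched for. The ACTA2 downstream window holds ccctatatgg and ccttgtttgg, each 1 base off the strict consensus, in a part not printed above. The TPM1 and VCL windows begin at 63048239 and 73997866, inside the GENCODE 29 genes, which begin at 63042632 and 73995193. Sequence before those outer starts was not searched. Both strands were searched, and all copies of GGAATG read in the direction of the gene. Of all 35116 windows of this length, 14.0% held GGAATG, 1.37% held 2 or more copies, 0.128% held 3 or more, 1.29% held the strict CArG consensus and 7.71% held TGANTCA. These are matches of letters in a short window, and nothing here measured binding.

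**Figure D1:**
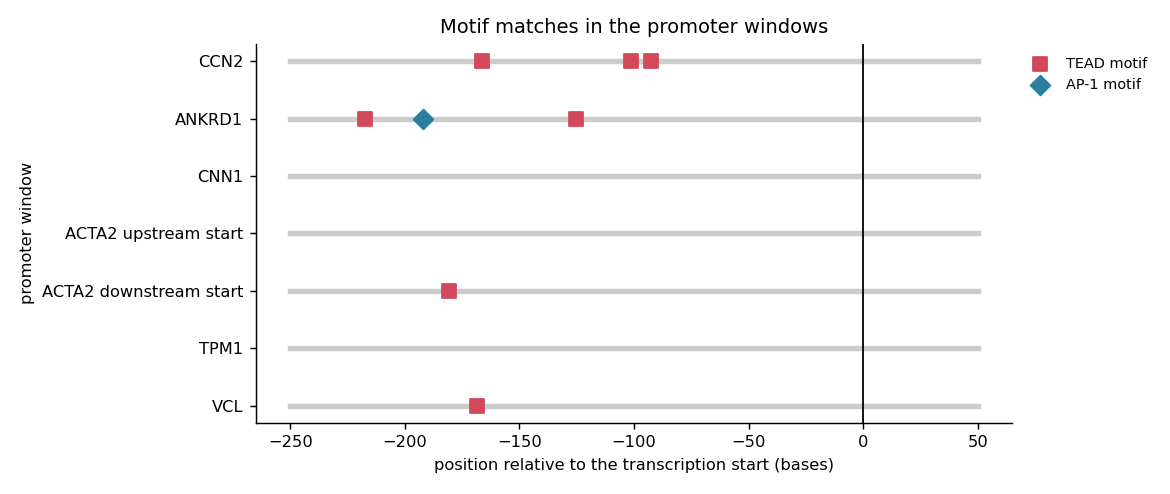
Positions of motif matches in 7 promoter windows of 6 genes, with distance in bases from the transcription start on the horizontal axis and 1 row per window. Red squares are GGAATG and the blue diamond is TGANTCA; CCN2 has 3 squares, ANKRD1 2 squares and the diamond, and 3 windows have no match.

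The matricellular genes stood highest in SRRM4 and lowest in SRRM3. CCN2, a secreted matrix-associated regulator of adhesion and fibrosis (ENSG00000118523, GRCh38 chromosome 6, 131948176 to 131951373, minus strand, named CTGF in GENCODE 29), was at 30.52 cRPKM (4214 reads) in SRRM4, 3.31 cRPKM (477 reads) in SRRM3, 9.27 cRPKM (1338 reads) in MSI1 and 16.94 cRPKM (2409 reads) in the empty vector. Each neighbouring pair in that order of levels differed beyond counting error. CCN2 was 9.22-fold higher in SRRM4 than in SRRM3 (8.38 to 10.2), which placed it at place 5 from the top among the 12704 genes compared. Against the empty vector its ratio was 1.80 in SRRM4 (1.71 to 1.89), 0.195 in SRRM3 (0.177 to 0.216) and 0.547 in MSI1 (0.512 to 0.585). It was thus above the control in SRRM4 and below it in both other libraries.

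CCN1, the secreted integrin ligand also called CYR61 (ENSG00000142871, chromosome 1, 85580761 to 85583962, plus strand), followed the same order at its ends but not in MSI1. It was at 25.32 cRPKM (3421 reads) in SRRM4, 9.17 cRPKM (1293 reads) in SRRM3, 18.89 cRPKM (2667 reads) in MSI1 and 17.97 cRPKM (2500 reads) in the empty vector. The SRRM4 over SRRM3 ratio was 2.76 (2.59 to 2.94). MSI1 and the empty vector did not differ beyond counting error for CCN1, with a ratio of 1.05 (0.995 to 1.11). Added together, CCN1 and CCN2 came to 55.84 cRPKM in SRRM4, 12.48 in SRRM3, 28.16 in MSI1 and 34.91 in the empty vector.

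ANKRD1 and TNFRSF12A shared the low SRRM3 level but were highest in MSI1. ANKRD1, an ankyrin-repeat protein of the nucleus and sarcomere (ENSG00000148677, chromosome 10, 90912096 to 90921276, minus strand), was at 6.98 cRPKM (812 reads) in SRRM4, 1.20 cRPKM (146 reads) in SRRM3, 14.43 cRPKM (1755 reads) in MSI1 and 5.48 cRPKM (657 reads) in the empty vector. All 4 levels were apart beyond counting error. ANKRD1 was 5.80-fold higher in SRRM4 than in SRRM3 (4.86 to 6.97), and MSI1 over the empty vector was 2.63 (2.41 to 2.88). SRRM4 was above the empty vector, at a ratio of 1.27 (1.15 to 1.41), and below MSI1, at a ratio of 0.484 (0.444 to 0.526). Its highest library was 12.0-fold its lowest, the widest range of the 9 genes.

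TNFRSF12A, the receptor for the cytokine TWEAK (ENSG00000006327, chromosome 16, 3018445 to 3022383, plus strand), was at 35.67 cRPKM (2116 reads) in SRRM4, 12.02 cRPKM (744 reads) in SRRM3, 58.92 cRPKM (3653 reads) in MSI1 and 25.26 cRPKM (1543 reads) in the empty vector. The order of libraries was that of ANKRD1, with every neighbouring pair apart beyond counting error. The SRRM4 over SRRM3 ratio was 2.97 (2.73 to 3.23), SRRM3 over the empty vector was 0.476 (0.436 to 0.520) and MSI1 over the empty vector was 2.33 (2.20 to 2.48).

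Of the smooth muscle genes, TAGLN behaved like CCN1 and CNN1 did not. TAGLN, the actin-binding protein transgelin (ENSG00000149591, chromosome 11, 117199321 to 117204782, plus strand), was at 6.49 cRPKM (344 reads) in SRRM4, 1.85 cRPKM (102 reads) in SRRM3, 3.65 cRPKM (202 reads) in MSI1 and 4.75 cRPKM (259 reads) in the empty vector. The SRRM4 over SRRM3 ratio was 3.52 (2.81 to 4.43), and SRRM3 over the empty vector was 0.389 (0.306 to 0.491). CNN1, calponin, which binds actin and restrains myosin (ENSG00000130176, chromosome 19, 11538717 to 11550323, plus strand), was at 0.83 cRPKM (79 reads) in SRRM4, 0.58 cRPKM (58 reads) in SRRM3, 3.50 cRPKM (349 reads) in MSI1 and 0.81 cRPKM (80 reads) in the empty vector. MSI1 stood alone at the top for CNN1, 4.30-fold above the empty vector (3.36 to 5.55). The other three libraries were close together. SRRM4 and the empty vector did not differ beyond counting error at a ratio of 1.02 (0.736 to 1.41), nor did SRRM3 and the empty vector at 0.716 (0.501 to 1.02). CNN1 passed the filter on low values only through its MSI1 level.

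ACTA2, TPM1 and VCL had the narrowest ranges of the 9 genes, and MYL9 was barely detected. ACTA2, smooth muscle alpha-actin (ENSG00000107796, chromosome 10, 88935074 to 88991339, minus strand), was at 28.11 cRPKM (2113 reads) in SRRM4, 39.81 cRPKM (3122 reads) in SRRM3, 33.92 cRPKM (2665 reads) in MSI1 and 36.27 cRPKM (2808 reads) in the empty vector. It was the only one of the 9 genes that was lower in SRRM4 than in SRRM3, at a ratio of 0.706 (0.668 to 0.746). Actin genes are near copies of each other, and ACTB and ACTG1 together reached 3732.43 cRPKM in SRRM4, 3551.87 in SRRM3, 3818.05 in MSI1 and 3408.25 in the empty vector, so how reads were split between them makes the ACTA2 level uncertain. Its antisense neighbour ACTA2-AS1 had 36 reads in SRRM4, 21 in SRRM3, 15 in MSI1 and 21 in the empty vector.

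TPM1, tropomyosin along the actin filament (ENSG00000140416, chromosome 15, 63042632 to 63071915, plus strand), was at 44.82 cRPKM (3340 reads) in SRRM4, 35.79 cRPKM (2782 reads) in SRRM3, 36.98 cRPKM (2880 reads) in MSI1 and 39.97 cRPKM (3067 reads) in the empty vector. MSI1 and SRRM3 did not differ beyond counting error for TPM1, and the SRRM4 over SRRM3 ratio was 1.25 (1.19 to 1.32). VCL, vinculin of focal adhesions (ENSG00000035403, chromosome 10, 73995193 to 74121363, plus strand), was at 40.80 cRPKM (15308 reads) in SRRM4, 35.68 cRPKM (13964 reads) in SRRM3, 62.38 cRPKM (24456 reads) in MSI1 and 52.50 cRPKM (20285 reads) in the empty vector. Both SRRM libraries lay below the empty vector for VCL, at ratios of 0.777 in SRRM4 (0.761 to 0.794) and 0.680 in SRRM3 (0.665 to 0.694). MYL9, a regulatory myosin light chain (ENSG00000101335, chromosome 20, 36541484 to 36551447, plus strand), had no read in SRRM4, 1 read in SRRM3, 2 reads in MSI1 and none in the empty vector. All 4 values were under a floor of 3 counts, which is 0.0498 CPM in SRRM4, 0.0477 in SRRM3, 0.0476 in MSI1 and 0.0483 in the empty vector, so no fold is given.

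**Figure D2:**
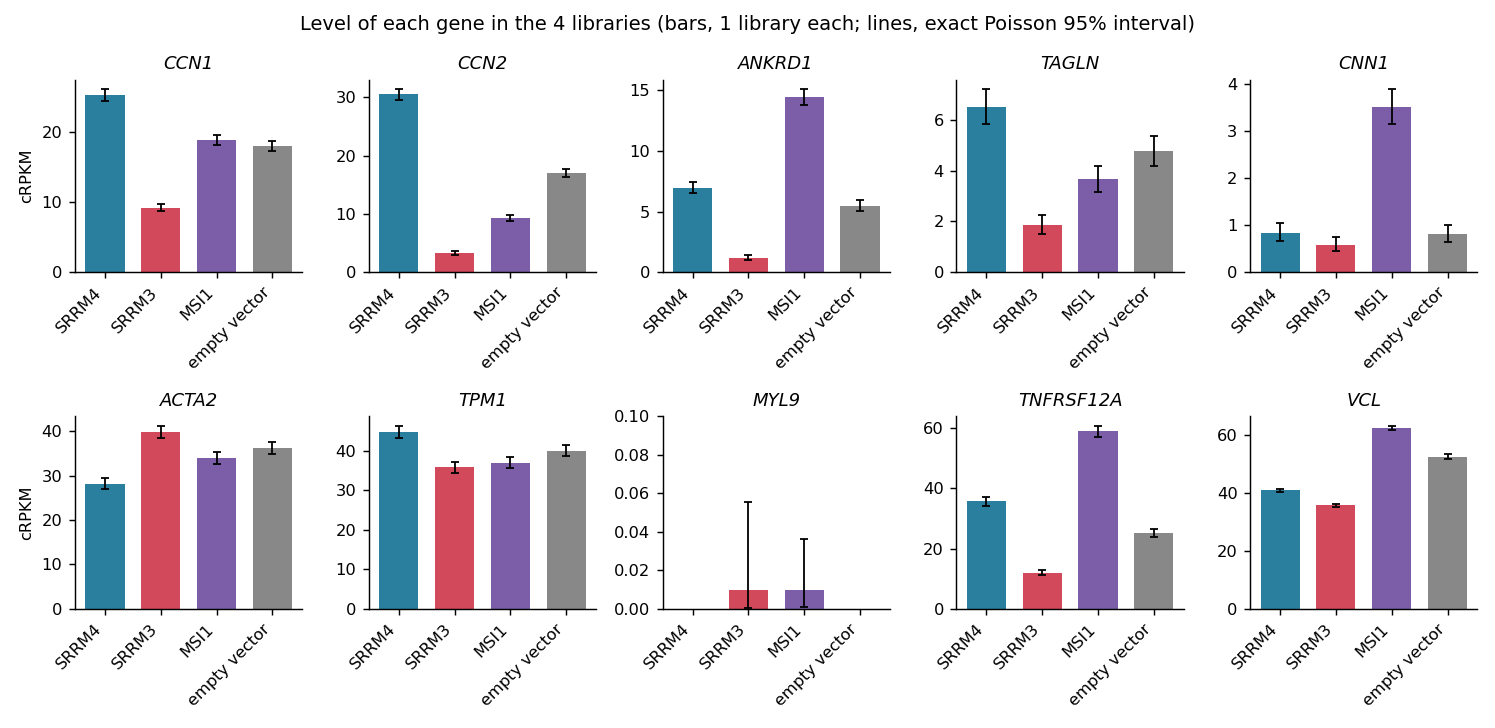
Deposited cRPKM of the 10 genes, 1 panel per gene with its own vertical axis from 0 and 1 bar per library in the order SRRM4, SRRM3, MSI1 and empty vector; each bar is 1 library, so there are no error bars between replicates. CCN2 runs from 30.52 in SRRM4 to 3.31 in SRRM3, CNN1 stands out in MSI1 at 3.50, and MYL9 is at 0 to 0.01.

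Comparing SRRM4 with SRRM3 directly, 5 of the 9 genes counted as higher (CCN2, ANKRD1, TAGLN, TNFRSF12A and CCN1) and 0 as lower. Among all genes compared 0.276% counted as higher and 0.244% as lower. The median log2 ratio of the 9 genes was 1.42, and that of all genes was -0.0071. Ranked from the top, CCN2 was at place 5, ANKRD1 at 11, TAGLN at 14, TNFRSF12A at 16 and CCN1 at 21, whereas TPM1 was at 505, CNN1 at 599 and VCL at 1525. ACTA2 was at place 283 from the bottom. Since the genes were chosen with these values known, their share above the background carries no inference.

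The split between the paralogs was then read against the empty vector. For SRRM3 over the empty vector 4 of 9 genes counted as lower (CCN2, ANKRD1, TAGLN and TNFRSF12A), where 0.299% of all genes did, and 0 as higher, where 0.582% did. CCN1 lay just outside that rule at a log2 ratio of -0.93 and TNFRSF12A just inside at -1.04. With a pseudocount of 2, TNFRSF12A at -0.96 and TAGLN at -0.81 no longer counted. For SRRM4 over the empty vector 0 of 9 counted as higher and 0 as lower, with 0.551% and 0.220% of all genes doing so. The largest SRRM4 ratio to the control was the 1.80 of CCN2, and CCN1 and TNFRSF12A each reached 1.41, TAGLN 1.37 and TPM1 1.12. For the 5 genes past the 2-fold rule between the paralogs, the SRRM3 log2 ratio to the control was thus larger in size than the SRRM4 one. For CCN2 the log2 ratio was 0.83 in SRRM4 over the empty vector and -2.19 in SRRM3 over the empty vector. Both comparisons share the empty vector library, so its value enters both. With the MSI1 library as control, the CCN2 log2 ratio was 1.67 in SRRM4 and -1.36 in SRRM3, so the SRRM4 value was then the larger. For CCN1, ANKRD1, TAGLN and TNFRSF12A the SRRM3 value stayed larger in size with that control.

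A gene was said to split where 1 SRRM library lay above and the other below the empty vector, with both counting intervals excluding 1. CCN1, CCN2, ANKRD1, TAGLN, TPM1 and TNFRSF12A, 6 of the 10 genes, split with SRRM4 above and SRRM3 below, as 3.79% of all genes did. ACTA2 alone split the other way, as 4.27% of all genes did. Its ratio to the empty vector was 0.775 in SRRM4 (0.732 to 0.820) and 1.10 in SRRM3 (1.04 to 1.16). CNN1, VCL and MYL9 did not split. The interval alone is a weak criterion at this depth, since between 23.2% and 32.3% of all genes had an interval excluding 1 in a given direction, over the comparisons made. With the MSI1 library as control in place of the empty vector, 4 genes split (CCN1, CCN2, TAGLN and ACTA2), because ANKRD1 and TNFRSF12A in SRRM4 were below their MSI1 levels and TPM1 in SRRM3 did not differ from MSI1 beyond counting error.

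**Figure D3:**
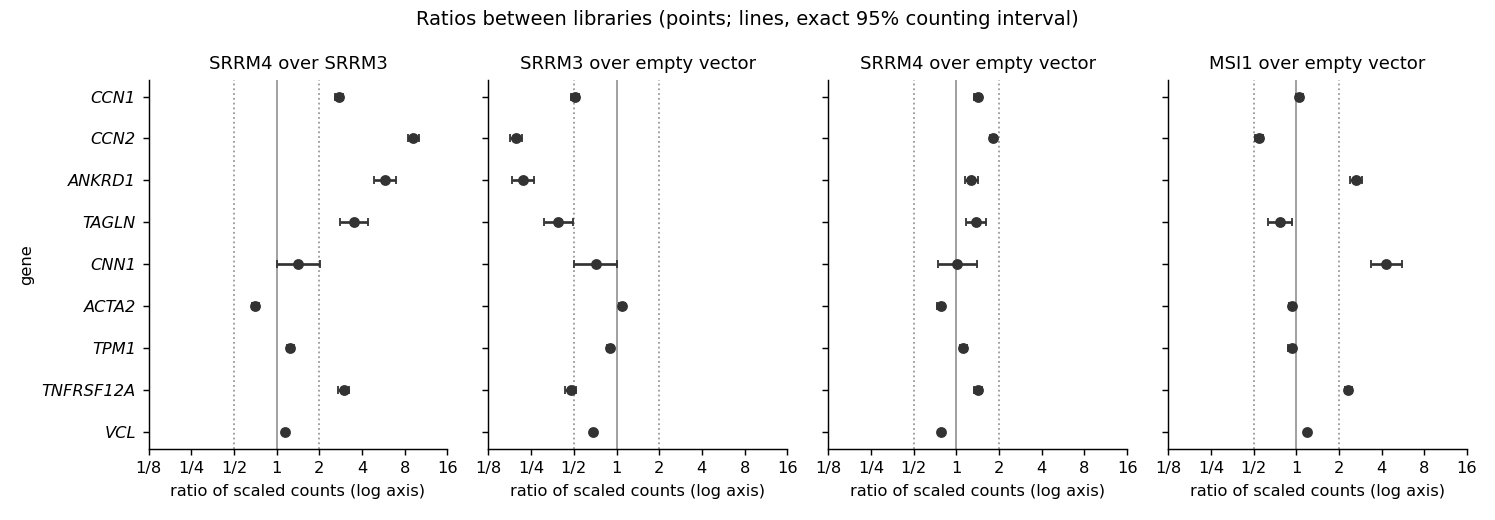
Ratios of depth-scaled counts for the 9 genes that passed the filter, on a log axis, with bars for the 95% counting interval. SRRM4 over SRRM3 ranges from 0.706 for ACTA2 to 9.22 for CCN2; for 6 genes the SRRM3 and SRRM4 ratios to the empty vector fall on opposite sides of 1 with SRRM3 lower.

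MSI1 gave a different selection of genes. Over the empty vector 3 of 9 counted as higher (CNN1, ANKRD1 and TNFRSF12A), against 0.299% of all genes, and 0 as lower, against 0.370%. The CNN1 call was lost with a pseudocount of 2, at a log2 ratio of 0.97 in place of 1.61, and with a filter at a mean of 5 cRPKM, which CNN1 did not pass. CNN1 passed the filter only through its MSI1 level, so its call and its place in this comparison were fixed in part by the filter. Ranked from the top, CNN1 was at place 7, ANKRD1 at 20 and TNFRSF12A at 27, while CCN2 was at 79 from the bottom. VCL was 1.19-fold higher (1.17 to 1.21), and TAGLN was at a ratio of 0.769 (0.636 to 0.927). The genes thus fell on both sides of the control in MSI1, and their median log2 ratio was 0.070 against 0.016 for all genes.

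Taken over all 4 libraries, the highest level of a gene was at least 2-fold its lowest for 3.13% of 12703 genes, with a median of 1.20-fold and a 95th percentile of 1.78-fold. The same ratio was 12.0 for ANKRD1, 9.22 for CCN2, 6.01 for CNN1, 4.90 for TNFRSF12A, 3.52 for TAGLN and 2.76 for CCN1. It was 1.75 for VCL, 1.42 for ACTA2 and 1.25 for TPM1. The 6 wide genes therefore lay beyond the 95th percentile, and VCL, ACTA2 and TPM1 within it. CNN1 is among the wide genes after passing the filter only through its highest library, MSI1.

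Likeness between genes was measured as the distance between log2 profiles (cRPKM plus 0.5) over the 4 libraries, each centred on its own mean. Among the 9 genes the closest pair was CCN1 and TAGLN at 0.315, followed by ACTA2 and TPM1 at 0.590 and by ANKRD1 and TNFRSF12A at 0.685. The distance is not scaled to a gene's range, so genes with narrow ranges lie close whatever their direction. From its own mean, ACTA2 was at -0.281 in SRRM4 and 0.214 in SRRM3. TPM1 ran the opposite way, at 0.189 in SRRM4 and -0.131 in SRRM3. CCN2 and CNN1 were farthest apart, at 2.67. Searching all genes, the 10 nearest to CCN2 included TAGLN at place 3 with a distance of 1.09, the cytokine gene IL32 at place 7 and CCN1 at place 9 with a distance of 1.31. The other 7 were the small RNA genes RNVU1-30, SNORD38A, SNORD63, MIR572 and SNORA17B and the unnamed ENSG00000269968 and ENSG00000274430. Over the 4 libraries the small RNA genes had 14, 6, 7, 16 and 2 reads in that order, and the unnamed genes 137 and 29. Counting error is large at so few reads, so a likeness of the small RNA genes to CCN2 was not established. Requiring 200 reads in total, a choice made after the data were seen, gave TAGLN, IL32, CCN1, PKP3, MGST1, EGR1, TMEM47, CGA, GALNT13 and SPRY4. The 5 nearest to TAGLN were CCN1, SNORA65, PKP3, IL32 and MIR572. Of these, SNORA65 had at most 9 reads in any library and MIR572 at most 6.

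**Figure D4:**
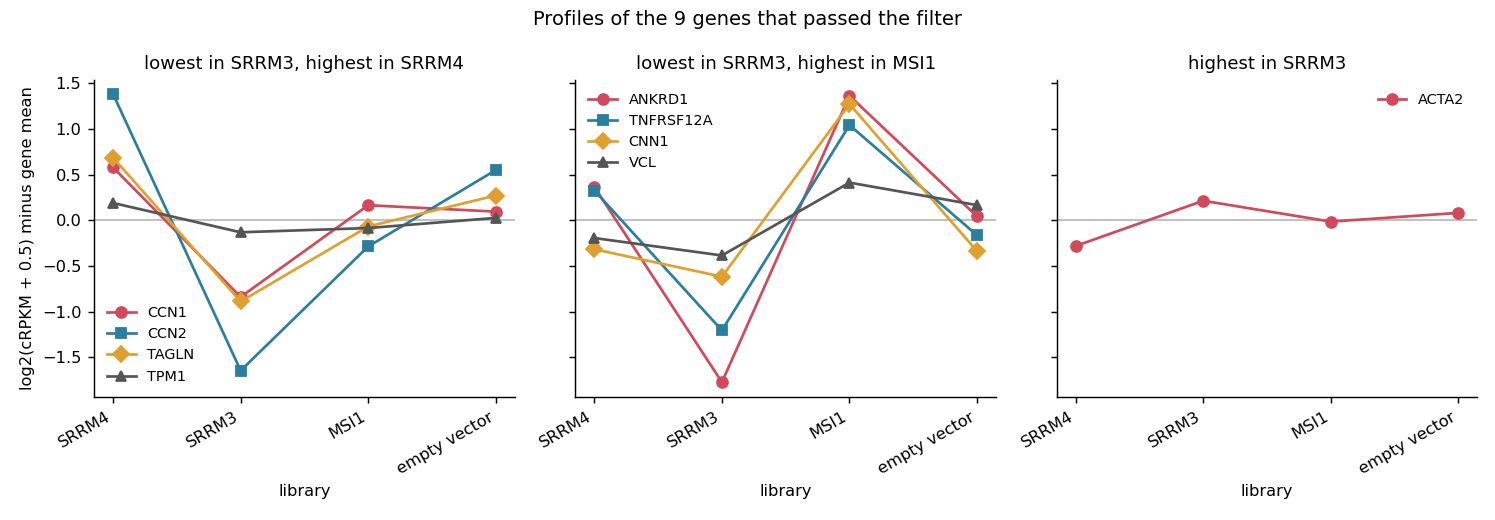
Profiles of the 9 genes over the 4 libraries as log2(cRPKM + 0.5) minus the gene's own mean; points are single libraries and lines join the points of 1 gene, the libraries having no natural order. CCN1, CCN2, TAGLN and TPM1 are highest in SRRM4, ANKRD1, TNFRSF12A, CNN1 and VCL are highest in MSI1, and ACTA2 is highest in SRRM3.

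Related genes, from lists of each family and pathway, were then set beside these. Of 23 listed paralogs of the 10 genes, 14 passed the filter. ACTBL2, an actin-like gene, was the only one of them to count as different in any of the 4 comparisons, at 3.53 cRPKM in SRRM4, 0.98 in SRRM3, 5.72 in MSI1 and 3.62 in the empty vector. It was 3.59-fold higher in SRRM4 than in SRRM3 (3.02 to 4.28), and its ratio of SRRM3 to the empty vector was 0.272 (0.228 to 0.323). As an actin near-copy it carries the same uncertainty as ACTA2. CNN2, a calponin relative, had an SRRM4 over SRRM3 ratio of 1.40, TPM2 also 1.40, TPM4 1.18, CNN3 1.14, TAGLN2 1.12 and CCN3 1.02. CCN4, CCN5 and CCN6 had 2 reads or fewer in every library. The abundant relatives of the low genes were at far higher levels per length: in SRRM4, TAGLN2 was at 616.14 cRPKM and CNN3 at 136.21 cRPKM.

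Other genes of smooth muscle contraction were compared next. Of 18 listed 11 passed the filter, and 0 counted as higher or lower in any of the 4 comparisons. Their median log2 ratio of SRRM4 over SRRM3 was 0.11. CALD1, caldesmon, had a ratio of 1.25, and ITGA8, an integrin subunit, a ratio of 0.579. All 36 listed genes of the actin cytoskeleton and focal adhesions passed the filter, and 0 counted as different. For SRRM4 over SRRM3, 27 of them had an interval above 1 and 4 below 1, where 27.1% and 30.5% of all genes did. Intervals narrow with read depth: ACTG1, with 223364 reads in SRRM4, counted at a ratio of 1.04. The all-gene shares were not matched for depth. ZYX, the adhesion protein zyxin, was at 59.74 cRPKM in SRRM4, 42.66 in SRRM3, 59.66 in MSI1 and 47.35 in the empty vector. FLNA, the actin crosslinker filamin A, had an SRRM4 over SRRM3 ratio of 1.15, and FLNC a ratio of 0.763.

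A YAP and TEAD target signature was examined in the same way. Of its 21 genes that are not among the 10, 15 passed the filter and 0 counted as different. Their median log2 ratio of SRRM4 over SRRM3 was 0.046. In that comparison 6 intervals lay above 1 and 4 below, where 27.1% and 30.5% of all genes did. Signature genes under the filter went both ways for SRRM4 over SRRM3. NUAK2 had a ratio of 1.32, whereas RBMS3 was at 0.767, CCDC80 at 0.866, AXL at 0.615 and NT5E at 0.589. MYOF, the membrane-repair protein myoferlin, also fell under the filter and is named after its values were seen. It was at 1.18 cRPKM (41 reads) in SRRM4, 0.19 cRPKM (7 reads) in SRRM3, 0.49 cRPKM (18 reads) in MSI1 and 0.95 cRPKM (34 reads) in the empty vector, again in the order of CCN2. Its SRRM4 over SRRM3 ratio was 6.11 (2.71 to 16.1). SRRM4 and the empty vector did not differ beyond counting error for MYOF, at a ratio of 1.24 (0.769 to 2.02). AMOTL2, an angiomotin that binds YAP, came nearest to the rule among those that passed, at 6.77 cRPKM in SRRM4, 3.39 in SRRM3, 4.76 in MSI1 and 4.99 in the empty vector. Its SRRM4 over SRRM3 ratio was 2.0 (1.85 to 2.16), and its ratio to the empty vector was 1.36 in SRRM4 and 0.680 in SRRM3. AJUBA, a LIM protein, had an SRRM4 over SRRM3 ratio of 1.44, FJX1 a ratio of 1.42 and TGFB2 a ratio of 1.31.

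Regulators of these routes were listed too. All 25 passed the filter; 1 counted as higher in MSI1 than in the empty vector, and 0 counted as different in the other comparisons. SRF was at 26.62 cRPKM in SRRM4, 23.17 in SRRM3, 24.31 in MSI1 and 23.33 in the empty vector. YAP1 was at 20.01 cRPKM in SRRM4, 19.88 in SRRM3, 17.22 in MSI1 and 20.75 in the empty vector. The SRRM4 over SRRM3 ratio was 1.15 for SRF, 1.03 for the SRF cofactor MRTFA, 0.835 for MRTFB, 1.01 for YAP1 and 0.976 for WWTR1. It was 1.03 for TEAD1, 0.811 for TEAD2, 0.984 for TEAD3 and 1.19 for TEAD4. These are transcript levels and do not show activity or location of the proteins.

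Matrix genes and the signalling partners of TNFRSF12A held no gene past the rule. Of 28 matrix genes 18 passed the filter and 0 counted as different. THBS1, the matricellular protein thrombospondin, had an SRRM4 over SRRM3 ratio of 1.86 (1.63 to 2.12), with 1.33 cRPKM in SRRM4, 0.72 in SRRM3, 1.03 in MSI1 and 1.21 in the empty vector. That is the library order of CCN2, with a smaller range. SRRM4 and the empty vector did not differ beyond counting error for THBS1, at a ratio of 1.10 (0.983 to 1.24). THBS1 passed the filter, at a mean of 1.07 cRPKM, only through its SRRM4 level. In MSI1 over the empty vector, COL5A1, a fibrillar collagen chain, was at a ratio of 0.436, and FN1, fibronectin, at 0.505. On the log2 measure of the rule, with 0.5 added, they were at -0.961 and -0.976, just short of it. The scaled-count ratio of COL5A1 was past 2-fold. Of 14 partners of TNFRSF12A 12 passed and 0 counted as different. TNFSF12, which encodes its ligand TWEAK, ran against the receptor, with 1.40 cRPKM in SRRM4 against 2.40 in SRRM3 and a ratio of 0.584 (0.466 to 0.728). RELB, a subunit of the noncanonical NF-kappaB pathway, had a ratio of 1.80 (1.41 to 2.30) and its partner NFKB2 1.27. RELB passed the filter, at a mean of 1.04 cRPKM, only through its SRRM4 level of 1.39 cRPKM.

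Immediate early genes, many of which SRF also controls, held 1 gene past the rule. Of 15 listed 11 passed the filter, 1 counted as higher in SRRM4 than in SRRM3, where 0.276% of all genes did, and 0 as lower. Their median log2 ratio was 0.39, and no direction of the list was tested. Intervals lay above 1 for 9 genes and below 1 for 1, where 27.1% and 30.5% of all genes did. EGR1, a zinc-finger transcription factor, was at 4.34 cRPKM in SRRM4, 1.55 in SRRM3, 2.88 in MSI1 and 2.42 in the empty vector, and its SRRM4 over SRRM3 ratio was 2.81 (2.45 to 3.21). FOSL1, an AP-1 subunit, was at 6.03 cRPKM in SRRM4, 2.90 in SRRM3, 7.02 in MSI1 and 5.42 in the empty vector, with an SRRM4 over SRRM3 ratio of 2.08 (1.81 to 2.40). IER3, a stress-responsive survival gene, had a ratio of 1.54. All 12 housekeeping genes passed the filter and 0 counted as different, with a median log2 ratio of 0.066.

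**Figure D5:**
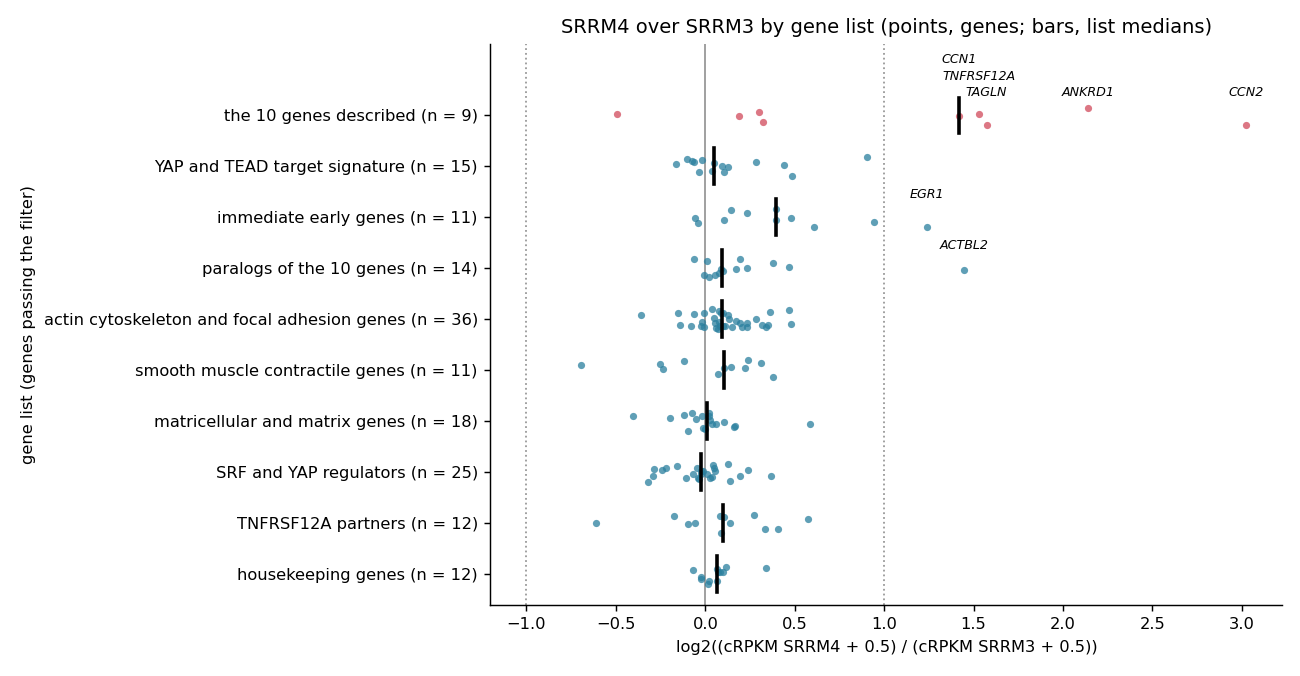
Log2 ratio of cRPKM plus 0.5, SRRM4 over SRRM3, for each gene that passed the filter, by gene list; black bars are list medians and dotted lines mark the 2-fold rule. CCN1, TNFRSF12A, TAGLN, ANKRD1 and CCN2 lie beyond the right line, as do EGR1 and ACTBL2; no other gene of these lists does.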

How the data were processed

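Per the labels, polyA-selected, stranded RNA-seq was made from 4 doxycycline-induced HEK293 lines, grouped by genotype, with 1 library per group. The deposited files give an Ensembl gene ID, cRPKM and a whole-number read count per gene. The authors' cRPKM is an RPKM with 2 decimals; over 3781 genes with at least 20 cRPKM, the ratio of deposited count to RPKM between libraries equalled that of the total counts within 0.0470%. Reads were placed on GRCh38 (hg38), per the submitters' processing notes. How reads were aligned and counted, with which annotation and whether by strand, is not stated in the labels or files. Of 41614 genes listed, 1426 without a value were left out. Symbols matched 39633 of the other 40188, and coordinates are from GENCODE 29.

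The 10 genes and all 12 further lists were chosen with earlier results of these data known. No test across samples was possible. Ratios of depth-scaled counts carry exact conditional (Clopper-Pearson) 95% intervals, which cover counting error only. Reads are not all independent molecules, so the intervals can be too narrow even for counting error. The 2-fold rule used log2(cRPKM + 0.5), which understates differences of low genes, for genes with a mean of at least 1 cRPKM. Named genes are the 10, the induced genes, paralogs, the core SRF, MRTF, YAP and TEAD genes, nearest profiles and genes past the rule. Up to 4 genes per list with the largest SRRM4 over SRRM3 fold are also named. FLNA, COL5A1, FN1 and MYOF fall outside this choice and were picked after their values were seen. The other YAP signature genes under the filter were added to set beside MYOF. A further result on 1 regulator is not reported here. Alternatives were pseudocounts of 0.1 and 2, other filters, centring, TMM factors from edgeR 4.0.16, median-of-ratios factors, other fold rules and MSI1 as control. Scripts ran in Python 3.11.15 (scipy 1.17.1, numpy 2.4.6, pandas 2.3.3; figures in matplotlib 3.10.9) and R 4.3.3.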

Additional observations from a re-analysis of the deposited data

Results flagged for a closer look

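A pair of induced lines moved a gene in opposite directions from the empty vector, each counting interval excluding 1, in the cases that follow. Each line is 1 library and every ratio to the control shares the empty vector, so the difference between lines was not tested.

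Between SRRM4 and SRRM3, 7 genes lay on opposite sides of the control. Of all genes, 3.79% had SRRM4 above and SRRM3 below it, and 4.27% the reverse. The ratio of SRRM4 to SRRM3 was 9.22 for CCN2, 5.80 for ANKRD1, 3.52 for TAGLN, 2.97 for TNFRSF12A, 2.76 for CCN1 and 1.25 for TPM1, and 0.706 for ACTA2. Between MSI1 and SRRM3, the ratio of MSI1 to SRRM3 was 12.0 for ANKRD1, 4.90 for TNFRSF12A, 1.75 for VCL and 0.852 for ACTA2. Between SRRM4 and MSI1, the ratio of SRRM4 to MSI1 was 3.29 for CCN2, 1.78 for TAGLN, 1.21 for TPM1 and 0.654 for VCL. The share of all genes was not computed for the pairs with MSI1, so these cases are not shown to stand out.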

How the results depend on the processing

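With 1 library per group there is no replicate check, and no library could be left out. No paired analysis was possible because each group has a single library and no fit was made. Of 226 single-gene log2 ratios under alternatives, 30 moved by more than their counting error. The sign turned for 3 SRRM4 ratios when MSI1 replaced the empty vector as control, none of them past the rule before: ANKRD1 was at -0.997 (0.32 against the empty vector), TNFRSF12A at -0.716 (0.49) and CNN1 at -1.59 (0.022). The count of genes higher in SRRM4 than in SRRM3 was 5 under every alternative run except with a mean of at least 5 cRPKM, which left 4. With a pseudocount of 2, 2 genes (CCN2 and ANKRD1) counted as lower in SRRM3 than in the empty vector, and 2 (ANKRD1 and TNFRSF12A) as higher in MSI1, as also with a mean of at least 5 cRPKM. A 1.5-fold rule made CCN2 the 1 gene above the empty vector in SRRM4 and the 1 gene below it in MSI1. With MSI1 as control, 1 gene (CCN2) was higher and 1 (CNN1) lower in SRRM4, and 4 genes split; requiring 1.5-fold on both sides, 1 gene (CCN2) split. Of the 10 genes nearest to CCN2, 2 were shared with a mean of at least 5 cRPKM and 3 with at least 200 reads. The all-gene counts moved more. With TMM factors, genes higher and lower were 12 and 13 for SRRM4 over SRRM3 (35 and 31 in the report), 58 and 15 for SRRM3 over the empty vector (74 and 38), 49 and 3 for SRRM4 over the empty vector (70 and 28), and 22 and 28 for MSI1 over the empty vector (38 and 47). Without a filter they were 112 and 104, 171 and 106, 153 and 85, and 125 and 118 in the same order, and with a mean of at least 5 cRPKM 7 and 7, 15 and 7, 13 and 2, and 6 and 13. The cause was not tested. Depth limits CNN1, with 58 to 349 reads, and MYL9, with 2 or fewer.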
